A study of Cavia porcellus with 6 samples.

Results

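The genes described here encode the enzymes that build cholesterol and fatty acids, together with the proteins that control them, measured by RNA sequencing in sclera from the posterior pole of guinea pig (Cavia porcellus) eyes. The members were a fixed list of 31 gene symbols, of which 29 matched a row of the deposited table of 32193 genes. Neither Cyp51a1, the lanosterol demethylase gene, nor Scd, the stearoyl-CoA desaturase gene, matched under its symbol, and both were not analysed here. All 29 members passed the filter on low counts, which left 16348 genes in the test.

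Cells make cholesterol from acetyl-CoA by way of mevalonate, isoprenoids, squalene and lanosterol, and they make fatty acids from the same acetyl-CoA. Both routes are driven by the sterol regulatory element-binding proteins (SREBPs), transcription factors held in the endoplasmic reticulum (ER) by INSIG proteins when sterols are plentiful and carried to the Golgi by SCAP when they are scarce. Many enzymes of the sterol route are SREBP targets, so their transcripts often move together.

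The form-deprived group (FDM) and the control group (NC) each held 3 libraries, all from the posterior pole of right eyes taken on day 28 of induction. Form deprivation, which keeps an eye from seeing sharp images, is widely used to induce myopia in this species. Strain, sex, age and the way the eyes were deprived were not given in the sources used here, and no library is labelled as treated with quercetin, which the series title names. The libraries held 12048216 to 16181865 counts in FDM and 10377397 to 17534982 in NC. The libraries numbered 1 stood apart, with 12783 genes detected in FDM 1 and 14416 in NC 1, while the other 4 had 17689 to 20591. Of 8061 genes with a mean above 300 counts, 223 were at 0 in FDM 1 and 96 in NC 1. In the other 4 libraries 0 to 4 of these genes were at 0. A 0 in FDM 1 or NC 1 therefore need not mean a low level, and its cause was not tested. All 12 fibroblast markers had counts in each library, with sums of 15714 to 61873 CPM in the FDM libraries and 6160 to 55098 CPM in the NC libraries. CPM are counts scaled to a common total, using library sizes normalised by the TMM method, and are not corrected for gene length, so levels of different genes are not compared.

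No cholesterol or fatty acid synthesis gene differed between FDM and NC beyond the error of the test. With edgeR's quasi-likelihood test 0 of the 29 members had a Benjamini-Hochberg adjusted p below 0.05, beside 0% of all genes tested. At an unadjusted p below 0.05 there were 0 members higher and 0 lower in FDM, where 108 of all genes tested (0.661%) were higher and 48 (0.294%) lower. Limma-voom also called 0 of the 29, and DESeq2 called 0 of the 17 members to which it gave an adjusted p, the other 12 having none. Over all genes DESeq2 called 11 and limma-voom 0. In direction the members leaned lower in FDM, with 11 positive and 18 negative log2 fold changes (FDM over NC) and a median of -0.17, against 51.2% positive and a median of 0.02 over all genes tested. That median was -0.26 to -0.10 with any 1 library left out. The members share the same 6 libraries, so their signs are not independent. By library the groups overlapped. Mean log2 CPM of the 29 was 4.96, 5.54 and 5.36 in FDM, against 5.07, 5.47 and 5.74 in NC. The pooled SD of these means within groups was 0.32. Of the 16 sterol enzymes 11 were negative with a median of -0.35. Their mean log2 CPM also overlapped, at 3.95, 4.99 and 4.85 in FDM, against 4.19, 4.90 and 5.20 in NC. The SREBP regulation genes had a median of -0.10 with 3 of 6 negative, and the fatty acid synthesis genes -0.09 with 4 of 7 negative. The difference between these groups of genes was not tested. In bulk tissue, fewer cells of a type and less RNA per cell cannot be told apart.

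**Figure D1:**
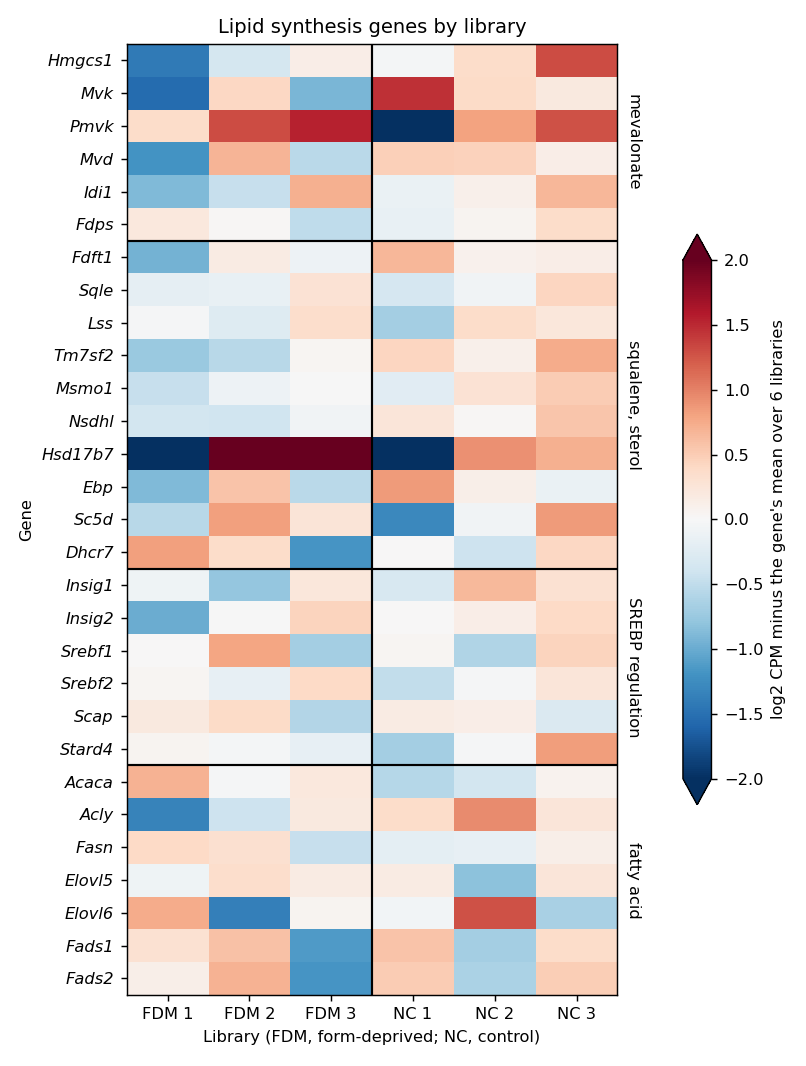
Level of the 29 genes in each library, as log2 CPM minus the gene's own mean over the 6 libraries, with FDM libraries left of NC libraries and horizontal lines between the 4 gene groups. Blue cells gather among the mevalonate and sterol genes in FDM 1, Hsd17b7 is far below its mean in FDM 1 and NC 1, and Fads1 and Fads2 share 1 pattern. The colours end at 2 in either direction.

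The groups did not overlap for 3 of the 29 members, Tm7sf2, Nsdhl and Acly, all 3 with every FDM library below every NC library, and for 0 members with every FDM library above. Over all genes tested these shares were 2.81% below and 2.73% above. Leaving out FDM 2, FDM 3, NC 1 or NC 3 made the count of 3 lower members 7, 7, 6 and 5, where the share of all genes tested was also larger, at 8.22%, 12%, 7.6% and 10.8%. Leaving out FDM 1 made the count of higher members 2, with 7.41% of all genes tested. The difference of the group means of log2 CPM exceeded the pooled SD within groups for 9 members (31.0%), against 20.3% of all genes tested. Of these 9, Hmgcs1, Mvk, Mvd, Fdft1, Tm7sf2, Msmo1, Nsdhl and Acly were lower in FDM and Acaca was higher. The median pooled SD within groups was 0.54 log2 units over the members and 0.95 over all genes tested.

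The mevalonate and isoprenoid genes, which carry acetyl-CoA to farnesyl diphosphate, summed to 137.4, 211.1 and 183.4 CPM in FDM 1, 2 and 3, against 225.2, 230.8 and 301.7 CPM in NC 1, 2 and 3. Each FDM sum lay below each NC sum, but the groups overlapped for each of the 6 genes alone. Mean log2 CPM of the 6 genes also overlapped, at 3.91, 4.92 and 4.72 in FDM, against 4.04, 5.01 and 5.31 in NC. How often sums of other genes lie apart in this way was not tested. Of the 6 genes, 5 had negative log2 fold changes, with a median of -0.40. Leaving out FDM 1 made this median -0.25, leaving out FDM 2 -0.66 and leaving out FDM 3 -0.69. Hmgcs1, the cytosolic HMG-CoA synthase that commits acetyl groups to the pathway, had 15.2, 31.7 and 44.7 CPM in FDM, against 39.3, 52.4 and 100.3 CPM in NC. FDM 1 was lowest and NC 3 highest, and the groups overlapped because FDM 3 lay above NC 1. Hmgcs1 averaged 30.5 ± 14.8 CPM in FDM and 64.0 ± 32.1 CPM in NC (SD, n = 3 each), a log2 fold change of -1.07 ± 0.55 (SE) with a 95% interval of -2.31 to 0.17 and an unadjusted p of 0.0834 in edgeR's test. The log2 fold change of Hmgcs1 was -1.52 without FDM 3 and -0.68 without NC 3. Mvk, the mevalonate kinase gene, had 7.10, 27.7 and 10.9 CPM in FDM, against 57.5, 27.0 and 23.9 CPM in NC. NC 1 stood above all other libraries and FDM 2 lay within the NC range. The log2 fold change of Mvk was -1.24 ± 0.67 (SE), with an interval of -2.76 to 0.27, and it ran from -2.0 without FDM 2 to -0.74 without NC 1, and was -0.50 without both libraries numbered 1.

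The other 4 genes of the group had log2 fold changes of -0.51 to 0.67. Mvd, the decarboxylase gene that makes isopentenyl diphosphate, had 13.0, 47.7 and 20.4 CPM in FDM, against 41.4, 41.0 and 32.8 CPM in NC. The NC libraries of Mvd were close together while FDM 2 was the highest of all 6. Its log2 fold change was -0.51 ± 0.56 (SE), and -1.20 without FDM 2 and -0.17 without FDM 1. Idi1, the isomerase that makes the second isoprenoid building block, ranged from 13.9 to 42.0 CPM in the FDM libraries and from 23.3 to 40.8 CPM in the NC libraries, and its log2 fold change was -0.30 ± 0.58 (SE). It was -0.98 without FDM 3, -0.12 without NC 3, -0.13 without FDM 2 and -0.0091 without FDM 1. Fdps, the farnesyl diphosphate synthase gene, ranged from 49.6 to 81.3 CPM in the FDM libraries and from 63.7 to 90.8 CPM in NC libraries, with -0.17 ± 0.39 (SE) and an interval of -1.04 to 0.71, and -0.52 without both libraries numbered 1 and -0.056 without FDM 3. Pmvk, the phosphomevalonate kinase gene, had 6.90, 13.4 and 15.7 CPM in FDM, against 0, 9.37 and 13.1 CPM in NC. The 0 of Pmvk in NC 1 allows up to 0.294 CPM by counting error alone (3 counts), and the other 5 libraries overlapped. Its log2 fold change was 0.67 ± 1.48 (SE), and 0.087 to 1.2 with any 1 library left out. It was 2.43 with limma-voom and 1.81 with the replicate number as a block.

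**Figure D2:**
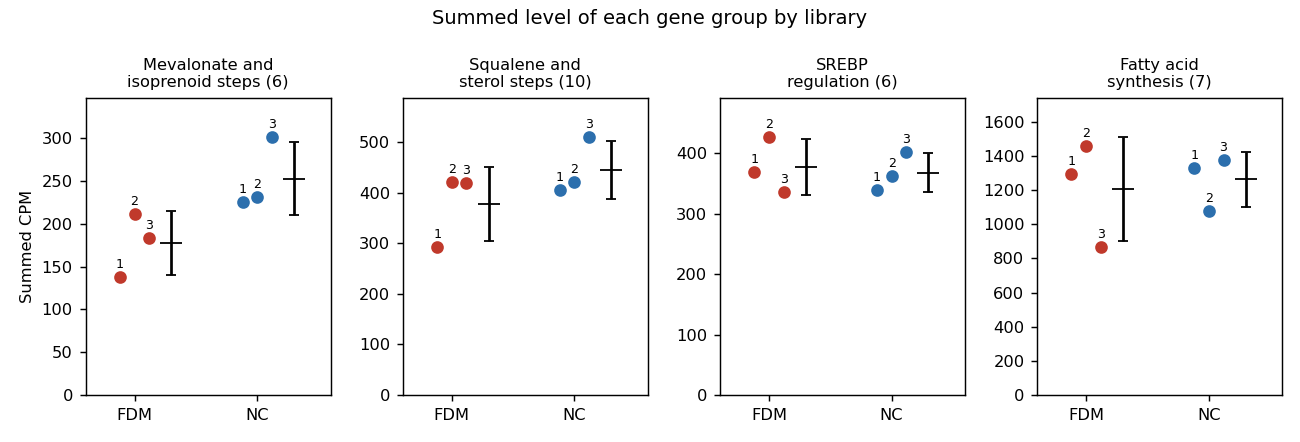
Summed CPM of each of the 4 gene groups in each library, FDM left of NC in each panel, with replicate numbers above the points, bars showing mean ± SD of 3 libraries, and the number of genes in brackets. In the mevalonate panel the FDM points reach 211.1 CPM and the NC points start at 225.2 CPM, while in the other 3 panels the groups overlap. The mean log2 CPM of the mevalonate genes, not shown here, overlapped between the groups.

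The squalene and sterol genes, which turn farnesyl diphosphate into cholesterol, summed to 293.6, 421.2 and 420.2 CPM in FDM, against 404.8, 420.6 and 511.0 CPM in NC. FDM 1 was lowest and NC 3 highest, and the other 4 libraries lay between 404.8 and 421.2 CPM. Of the 10 genes, 6 had negative log2 fold changes and the median was -0.22, or -0.33 without FDM 3. Tm7sf2, a sterol reductase gene, had 10.3, 11.7 and 17.8 CPM in FDM, against 23.3, 18.6 and 29.0 CPM in NC. Every FDM library lay below every NC library, with FDM 3 and NC 2 only just apart. Tm7sf2 averaged 13.2 ± 3.98 CPM in FDM and 23.6 ± 5.21 CPM in NC (SD, n = 3 each), a log2 fold change of -0.84 ± 0.59 (SE) and an interval of -2.18 to 0.50. Nsdhl, a dehydrogenase of the removal of methyl groups from lanosterol, had 27.4, 26.9 and 33.8 CPM in FDM, against 42.0, 35.8 and 52.0 CPM in NC. These groups were also apart, and Nsdhl had the smallest pooled SD of the members, 0.23 log2 units. Its mean was 29.4 ± 3.87 CPM in FDM and 43.3 ± 8.17 CPM in NC (SD, n = 3 each), with a log2 fold change of -0.56 ± 0.42 (SE), -0.73 to -0.48 with any 1 library left out, and an unadjusted p of 0.218 in edgeR's test.

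Fdft1, the squalene synthase gene at the branch from isoprenoids to sterols, had 55.6, 119.8 and 99.5 CPM in FDM, against 169.2, 113.4 and 116.6 CPM in NC. FDM 2 lay just above NC 2 and NC 3, and the log2 fold change was -0.54 ± 0.43 (SE). It was -0.28 without FDM 1, -0.33 without NC 1 and -0.16 without both. Msmo1, the methylsterol oxidase gene, had 34.4, 44.2 and 46.7 CPM in FDM, against 40.3, 57.7 and 67.1 CPM in NC. NC 1 fell among the FDM libraries, and the log2 fold change was -0.40 ± 0.41 (SE), with -0.58 to -0.28 with any 1 library left out. Sqle and Lss, the epoxidase and cyclase genes that make lanosterol from squalene, had log2 fold changes of -0.05 and 0.00, with 95% intervals of -0.98 to 0.89 and -0.95 to 0.96. Sqle ranged from 41.3 to 57.3 CPM in the FDM libraries and from 37.1 to 63.2 CPM in NC libraries, and Lss from 55.4 to 84.1 CPM in the FDM libraries and from 41.1 to 85.1 CPM in NC libraries. For both genes the FDM range fell inside the NC range. Ebp, a sterol isomerase gene, ranged from 6.11 to 17.0 CPM in the FDM libraries and from 10.4 to 20.6 CPM in the NC libraries, and its log2 fold change was -0.49 ± 0.81 (SE), with -1.06 without FDM 2, -0.15 without NC 1 and 0.02 without both libraries numbered 1. Sc5d, a sterol desaturase gene, had 0.20 ± 0.61 (SE), and -0.18 without FDM 2 and -0.19 without NC 1. Dhcr7, the reductase gene of a last step to cholesterol, had 26.5, 19.3 and 6.53 CPM in FDM, against 15.0, 11.2 and 19.9 CPM in NC. Its highest and its lowest library were both FDM, and its log2 fold change of 0.18 ± 0.72 (SE) was -0.26 without FDM 1 and -0.03 without NC 2.

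Hsd17b7, a ketosteroid reductase gene of the same demethylation steps as Nsdhl, had a positive log2 fold change. It had 0, 198 and 304 counts in FDM 1, 2 and 3, against 0, 61 and 61 counts in NC 1, 2 and 3. In CPM these were 0, 14.3 and 19.1 in FDM and 0, 3.69 and 3.18 in NC, where the 0 values allow up to 0.296 CPM in FDM 1 and 0.294 CPM in NC 1. Both libraries numbered 1, which had the fewest detected genes, were at 0, and the remaining FDM libraries lay above the remaining NC libraries. The log2 fold change was 2.27 ± 2.08 (SE), with an interval of -2.42 to 6.96 and an unadjusted p of 0.303 in edgeR's test. Without both libraries numbered 1 it was 2.19, with an unadjusted p of 0.0186, which was 1.0 after Benjamini-Hochberg adjustment in edgeR's test.

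**Figure D3:**
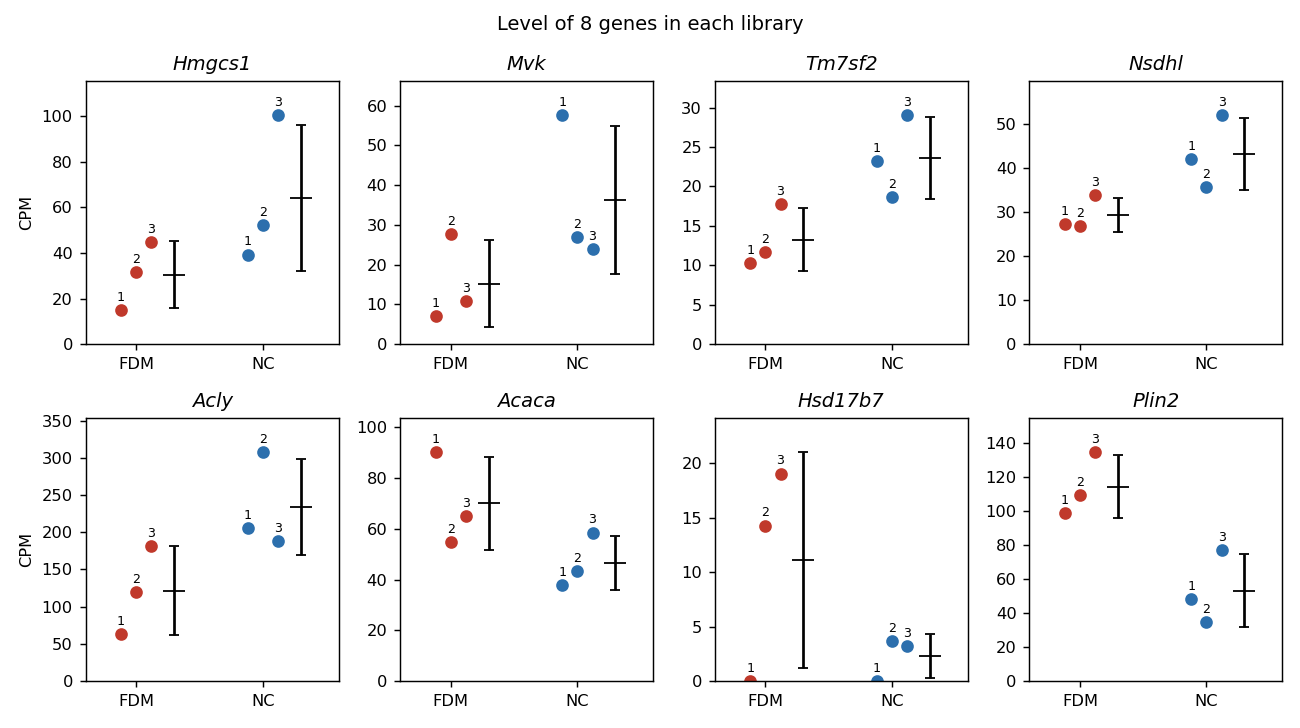
CPM of 8 genes in each library, FDM left of NC, with replicate numbers above the points and bars showing mean ± SD of 3 libraries. The FDM and NC points are apart for Tm7sf2, Nsdhl and Acly, with FDM lower, and for Plin2, which is not among the 29 genes, with FDM higher. For Acaca 1 FDM point lies below the highest NC point. Hsd17b7 is at 0 in FDM 1 and NC 1.

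The libraries did not contribute evenly to the values of the sterol enzymes. NC 3 was the highest library for 7 of the 16 sterol enzymes (43.8%) and the lowest for 0, where it was highest for 12.4% and lowest for 5.47% of all genes tested. FDM 1 was the lowest for 9 of the 16 (56.2%), where it was lowest for 42.3% of all genes tested. Without NC 3 the median of the 16 was -0.22 with 10 negative, and without FDM 1 it was -0.24 with 11 negative. Negative values numbered 10 to 13 of 16 with any 1 library left out.

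The 6 genes that control the pathway had log2 fold changes of -0.42 to 0.18, and their median ran from -0.21 to -0.0018 with any 1 library left out. Together they summed to 369.2, 427.7 and 336.1 CPM in FDM, against 339.0, 361.9 and 402.7 CPM in NC, with the groups fully intermixed. Srebf2, which encodes the SREBP that acts mainly on sterol genes, had 108.1, 93.7 and 138.6 CPM in FDM, against 74.4, 102.6 and 123.5 CPM in NC. Its log2 fold change was 0.18 ± 0.39 (SE), with an interval of -0.69 to 1.05, and -0.06 without FDM 3. Srebf1, which encodes the SREBPs with the larger part in fatty acid genes, had 71.9, 123.2 and 44.3 CPM in FDM, against 73.6, 46.9 and 96.9 CPM in NC. The FDM libraries of Srebf1 held both the highest and the lowest value, and its log2 fold change of 0.14 ± 0.49 (SE) was -0.32 without FDM 2 and -0.13 without NC 2. Scap, the escort of both, had 0.03 ± 0.41 (SE), with values of -0.18 to 0.20 when 1 library was left out. Insig1, an SREBP target whose protein holds SCAP in the ER, had 24.1, 14.9 and 30.1 CPM in FDM, against 20.5, 40.0 and 31.5 CPM in NC. NC 1 fell inside the FDM range, and the log2 fold change was -0.42 ± 0.53 (SE), with -0.74 without FDM 3 and -0.19 without FDM 2. Insig2, its close relative, had -0.27 ± 0.56 (SE), and 0.04 without FDM 1. Stard4, a carrier of cholesterol between membranes, ranged from 8.53 to 9.96 CPM in the FDM libraries and from 5.97 to 17.3 CPM in NC libraries. Its log2 fold change was -0.23 ± 0.88 (SE), and 0.17 without NC 3.

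The fatty acid synthesis genes summed to 1293, 1462 and 868 CPM in FDM, against 1332, 1077 and 1379 CPM in NC, and FDM 3 was the lowest library. Their median log2 fold change of -0.09 was 0.17 without FDM 3, 0.14 without NC 1 and 0.02 without FDM 2. Acly, the ATP citrate lyase gene that supplies cytosolic acetyl-CoA to both fatty acids and sterols, had 62.6, 119.4 and 182.1 CPM in FDM, against 206.0, 307.9 and 187.7 CPM in NC. The groups were apart, with FDM 3 and NC 3 nearest to each other. Acly averaged 121.4 ± 59.8 CPM in FDM and 233.9 ± 64.8 CPM in NC (SD, n = 3 each), a log2 fold change of -0.95 ± 0.49 (SE) with an interval of -2.05 to 0.15 and an unadjusted p of 0.0839 in edgeR's test. It was -1.44 without FDM 3 and -0.63 without FDM 1. Acaca, the acetyl-CoA carboxylase of the next and rate-limiting step, had 90.3, 54.9 and 65.1 CPM in FDM, against 37.8, 43.2 and 58.6 CPM in NC. FDM 2 lay below NC 3, and the other FDM libraries lay above all of NC. Acaca averaged 70.1 ± 18.2 CPM in FDM and 46.5 ± 10.8 CPM in NC (SD, n = 3 each), and its log2 fold change was 0.59 ± 0.41 (SE), with 0.36 without FDM 1 and 0.16 without both libraries numbered 1.

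Fasn, the fatty acid synthase gene, had 531.0, 502.7 and 293.4 CPM in FDM, against 354.2, 361.5 and 437.4 CPM in NC. FDM held both the highest and the lowest library, and the log2 fold change was 0.20 ± 0.47 (SE), with an interval of -0.85 to 1.25 and values of 0.049 to 0.36 with any 1 library left out. Fat cells, a main site of Fasn expression, were sought by 11 markers, with 10 present and 7 tested, 3 of these with positive and 4 with negative log2 fold changes. They summed to 177.6 to 530.4 CPM in the FDM libraries and 177.7 to 473.8 CPM in the NC libraries. The highest sum was in FDM 1, which also had the most Fasn, but Plin4 alone gave 347.3 of these 530.4 CPM. Plin4, Cidec and Lipe were highest in FDM 1, while Adipoq, Plin1 and Lpl were highest in NC 3 and Cidea in NC 1. Adipoq had 28.8 CPM in FDM 1 and 65.6 CPM in NC 3. The part of fat cells in the Fasn values was not tested. Adipoq had counts in all 6 libraries, Plin1 was at 0 in FDM 1 and FDM 2, and Lep was at 0 in FDM 1, FDM 2 and NC 1. Elovl6, which lengthens saturated and monounsaturated fatty acids, had 29.3, 6.71 and 18.1 CPM in FDM, against 16.7, 42.2 and 11.1 CPM in NC. FDM 2 was lowest and NC 2 highest, and its log2 fold change of -0.37 ± 0.75 (SE) was 0.02 without FDM 2 and 0.35 without NC 2. Elovl5, which lengthens polyunsaturated fatty acids, had 0.22 ± 0.42 (SE), and -0.08 without NC 2.

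Fads1 and Fads2, the desaturase genes of polyunsaturated fatty acid synthesis, followed each other from library to library and not the groups. Fads1 had 247.6, 298.3 and 90.9 CPM in FDM, against 296.3, 124.0 and 256.9 CPM in NC. Fads2 had 226.4, 337.0 and 92.6 CPM in FDM, against 295.8, 135.0 and 294.8 CPM in NC. Both were low in FDM 3 and NC 2 and high in the other 4 libraries, spanning 3.28-fold for Fads1 and 3.64-fold for Fads2. The ratio of their CPM was 1.09, 0.885 and 0.982 in FDM and 1.0, 0.918 and 0.872 in NC, a span of 1.25-fold. Their log2 fold changes were -0.09 ± 0.55 and -0.15 ± 0.56 (SE), and both were positive without FDM 3 (0.23 and 0.17) and without NC 1 (0.15 and 0.02). Markers of myelinating glia, which were all 12 tested with 11 negative and a median log2 fold change of -0.46, summed to 2681, 6608 and 1224 CPM in FDM 1, 2 and 3, against 3848, 2897 and 9075 CPM in NC 1, 2 and 3. FDM 3 was lowest in this sum as in Fads1 and Fads2, and NC 3 was highest in this sum as in the sums of the mevalonate and of the squalene and sterol genes. The match did not hold throughout, as FDM 1 with high Fads1 had 2681 CPM and NC 2 with low Fads1 had 2897 CPM. The sum of 13 photoreceptor markers was 229.2, 1582 and 12123 CPM in FDM, against 8467, 26970 and 510.5 CPM in NC. It was highest in NC 2 and FDM 3, where Fads1 and Fads2 were low, but NC 1 was next and had high Fads1 and Fads2. Mbp had counts in all 6 libraries, and Mog and Ugt8 were at 0 in FDM 1. The part of glia or photoreceptors in the values was not tested.

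**Figure D4:**
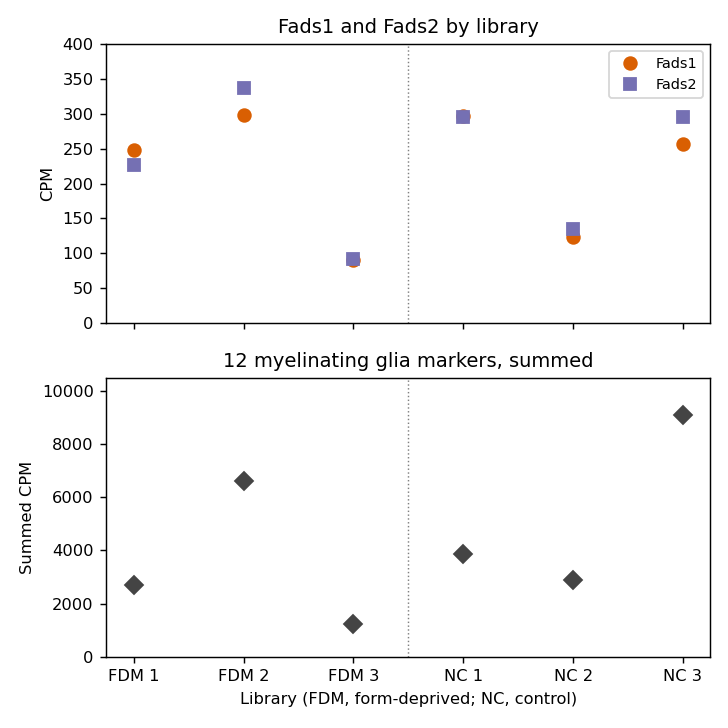
Upper panel, CPM of Fads1 and Fads2 in each library. Lower panel, summed CPM of 12 markers of myelinating glia in the same libraries, with a dotted line between FDM and NC. Fads1 and Fads2 lie almost on each other and are lowest in FDM 3, which is also lowest in the glial sum at 1224 CPM. The glial sum is 2681 CPM in FDM 1, where both genes are high, and 2897 CPM in NC 2, where both are low.

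Markers of other cell types also differed between libraries. Of 12 fibroblast markers tested, 9 had positive log2 fold changes, with a median of 0.51. Of 13 photoreceptor markers tested, 13 had negative log2 fold changes, with sums of 229.2 to 12123 CPM in the FDM libraries and 510.5 to 26970 CPM in the NC libraries, and Pde6a, Pde6b, Pde6g, Rom1 and Guca1a were at 0 in FDM 1. NC 2, the highest library of this sum, was also the highest for Acly. The other libraries did not all follow. FDM 3, next in this sum at 12123 CPM, had 182.1 CPM of Acly. NC 3, with a sum of 510.5 CPM, had 187.7 CPM of Acly. Of 14 skeletal muscle markers tested, 14 had positive values, with sums of 13751 to 91986 CPM in the FDM libraries and 456 to 36344 CPM in the NC libraries, and Myh2, Myh4 and Mb were at 0 in NC 1. The surface epithelium sum was 7.5 to 14.2 CPM in the FDM libraries and 3.4 to 9.8 CPM in the NC libraries, and the sebaceous and Meibomian gland sum was 1.1 to 7.5 CPM in the FDM libraries and 2.5 to 5.1 CPM in the NC libraries. Pigment epithelium markers, 5 of 7 of them negative, summed to 101.9 to 302.9 CPM in the FDM libraries and 187.1 to 474.5 CPM in the NC libraries. Melanocyte markers, 5 of 6 positive, were all at 0 in FDM 1 and summed to at most 250.6 CPM in FDM and 101.5 CPM in NC. Macrophage markers, 8 of the 9 tested with positive log2 fold changes, summed to 296.2 to 588.9 CPM in the FDM libraries and 161.3 to 637.4 CPM in the NC libraries. The part of these cells in the lipid synthesis values was not tested.

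The rest of the pathway was followed in 93 further genes, of which 90 were in the table and 86 were tested. With edgeR's test 0 were called, 45 had positive and 41 negative log2 fold changes, and the median was 0.08. At an unadjusted p below 0.05 in that test there were 2 higher and 0 lower in FDM. Of all genes tested, 108 (0.661%) were higher and 48 (0.294%) lower. The groups did not overlap for 3 of the 86 with FDM higher and for 2 with FDM lower. Over all genes tested these shares were 2.73% higher and 2.81% lower. The further gene of smallest p was Plin2, the coat protein of lipid droplets. Plin2 had 99.1, 109.7 and 134.9 CPM in FDM, against 48.2, 34.7 and 76.9 CPM in NC. Each FDM library of Plin2 exceeded each NC library, and the log2 fold change was 1.10 ± 0.42 (SE), with an unadjusted p of 0.0279, which was 1.0 after Benjamini-Hochberg adjustment in edgeR's test.

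Of 6 further sterol synthesis genes 4 were negative, with a median of -0.17. Of 10 genes of SREBP processing and sterol-regulated degradation 5 were negative, with a median of 0.03. The protease gene Mbtps1, which cuts SREBPs in the Golgi, had -0.23 ± 0.38 and Erlin2, an ER protein of sterol-regulated degradation, 0.51 ± 0.55 (SE). With any 1 library left out Mbtps1 had -0.45 to -0.046 and Erlin2 0.21 to 0.97.

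Of 13 genes of cholesterol uptake, transport and storage 7 were negative, with a median of -0.12, and Scarb1, the high-density lipoprotein receptor gene, had -0.79 ± 0.57 (SE), and -0.31 without NC 2. Of 5 genes of the liver X receptors and cholesterol efflux 3 were positive, with a median of 0.25. Ch25h, which makes an oxysterol that holds SREBPs back, had 11.4, 6.57 and 2.20 CPM in FDM, against 0, 1.09 and 1.09 CPM in NC. Each FDM library exceeded each NC library at these low levels, and the log2 fold change was 3.18 ± 1.92 (SE) with an unadjusted p of 0.131 in edgeR's test. Ch25h was among the 3 further genes counted above as higher without overlap. The efflux transporter gene Abcg1 had -0.58 ± 0.56 (SE), and 0.03 without NC 2. Of 25 further genes of fatty acid synthesis and activation 14 were negative, with a median of -0.12. The elongase gene Elovl7 had -3.53 ± 2.17 on 0, 0.505 and 0.125 CPM in FDM, against 3.33, 0.907 and 3.39 CPM in NC. Mlxipl, which encodes the carbohydrate-responsive factor of lipogenic genes, had 0.82 ± 0.51 and Acacb, the mitochondrial acetyl-CoA carboxylase gene, 0.56 ± 0.51 (SE), with 0.44 and -0.16 without both libraries numbered 1. Of 12 glycerolipid synthesis genes 6 were positive, with a median of 0.09, and Lpin1, a phosphatidate phosphatase gene, had 0.58 ± 0.46 (SE), and 0.03 without both libraries numbered 1. Of 15 fatty acid oxidation genes 12 were positive with a median of 0.14, where 51.2% of all genes tested were positive. They summed to 870.8, 955.1 and 716.8 CPM in FDM, against 430.5, 837.5 and 982.8 CPM in NC, with NC 1 lowest. The acyl-CoA dehydrogenase genes Acads and Acadvl had 0.89 ± 0.79 and 0.29 ± 0.40 (SE), with 0.06 and 0.01 without both libraries numbered 1.

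The intervals set the size of change that these libraries could not tell from none. The median SE of the members was 0.55 log2 units, against 0.79 over all genes tested, and the 95% interval of each of the 29 included 0. With 1 library left out, 16 of the 29 log2 fold changes kept their sign in all 6 fits and 13 did not. Permuting 3 and 3 libraries exactly for 1 gene gives no two-sided p below 0.1.

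**Figure D5:**
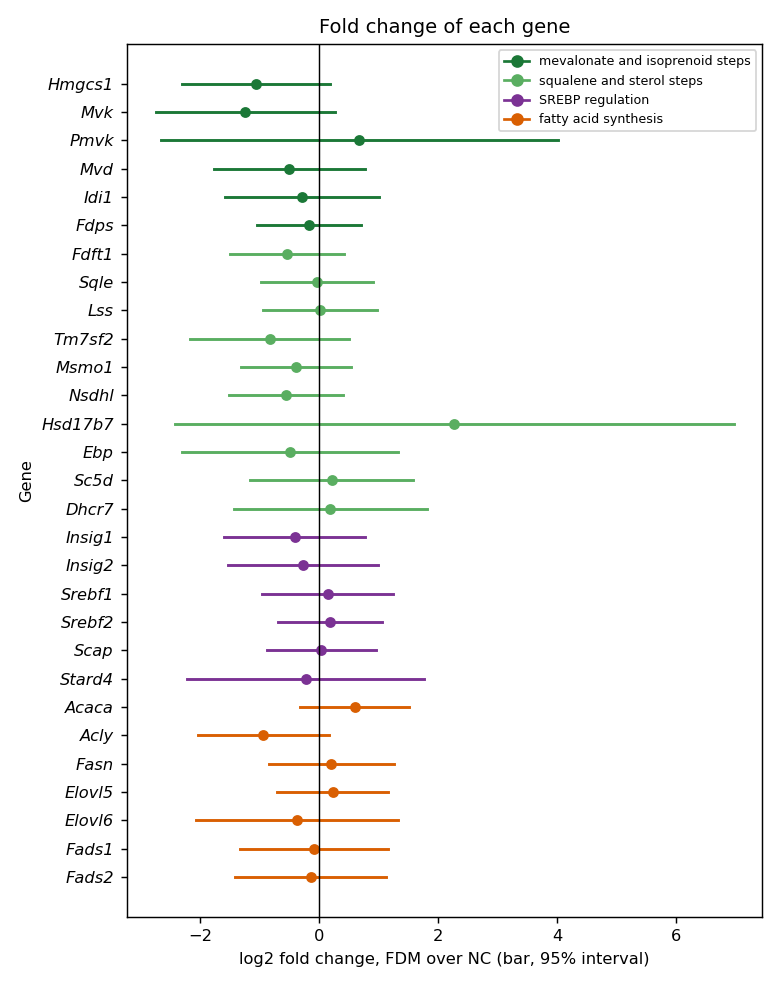
Log2 fold change, FDM over NC, of each of the 29 genes with its 95% interval from edgeR's quasi-likelihood fit, coloured by gene group. Each interval crosses 0, and those of Hsd17b7 and Pmvk, which have libraries at 0 counts, are the widest.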

How the data were processed

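The deposited values were raw read counts per gene, whole numbers in a single table with 1 column per library. Per the submitters' processing notes the authors used Trimmomatic, STAR and HTSeq. Their versions, the strand setting, the annotation and the genome build were not given in the sources used here. Reads of genes that overlap, or of antisense partners, therefore cannot be told apart, and no coordinates or sequences are printed. Trizol extraction and a NEBNext Ultra kit are named in the labels' protocols. Groups and replicate numbers came from the titles. Nothing but the use of right eyes shows that libraries came from separate animals, so p-values measure the spread between these libraries.

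The main fit was made with edgeR 4.0.16 in R 4.3.3 (filterByExpr, TMM, robust quasi-likelihood fit, group as the only term, Benjamini-Hochberg adjustment over 16348 genes, threshold 0.05). The SE is the absolute log2 fold change over the square root of F, and the 95% intervals use the fit's degrees of freedom. Levels on the log2 scale use a prior count of 2. DESeq2 1.42.0, limma 3.58.1, other scalings and filters, the replicate block and left-out libraries were alternatives. The fits were tested on simulated data that varied less than these libraries, whose common biological coefficient of variation was 0.933. That test therefore does not show how well the fits recover changes here. Figures were drawn with matplotlib 3.10.9. Limits for counts of 0 and the depth of 10377397 to 17534982 counts per library cover counting error only.

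The members and gene lists were chosen with earlier results of these data known. All members found were described, and of each further list the 2 genes of smallest p, with Acacb and a few other named genes always. Some genes that this rule names are not reported here. Summed marker levels cover fibroblasts, fat cells, glands, surface epithelium, myelinating glia, photoreceptors, pigment epithelium, melanocytes, muscle and macrophages.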

Additional observations from a re-analysis of the deposited data

How the results depend on the processing

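In each of the 14 alternatives 0 members and 0 further pathway genes were called, but DESeq2 gave no adjusted p to 12 of the 29 members and 35 of the 86 further genes. Over all genes DESeq2 called 11 at adjusted p below 0.05 and every other fit 0. Total-count scaling moved the median of all genes to -0.23, the SREBP regulation median to -0.37 and the fatty acid median to -0.33, with 5 members lower without overlap (5.76% of all genes) and 1 lower at unadjusted p below 0.05 (130 of all genes). That last count was also 1 with no low-count filter and 1 with the replicate block, both for Hmgcs1, with 190 and 22 of all genes. Without both libraries numbered 1 there were 9 members lower and 1 higher without overlap, where 13.4% and 9.78% of all genes were. In that fit 1 member, Hsd17b7, was higher at unadjusted p below 0.05, where 104 of all genes were. With 1 library left out, members at unadjusted p below 0.05 and lower numbered 0 to 2 (37 to 320 of all genes). Members without overlap were 3 to 7 lower and 0 to 2 higher, where 4.43% to 12% and 4.24% to 9.05% of all genes were, and the fatty acid median ran from -0.17 to 0.17.

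The median of the 16 sterol enzymes was negative throughout, from -0.59 with total-count scaling to -0.22 without NC 3. Some single log2 fold changes changed sign. With total-count scaling these were Dhcr7 at -0.11, Fasn at -0.072, Lss at -0.27, Sc5d at -0.057, Scap at -0.24, Srebf1 at -0.11 and Srebf2 at -0.078. DESeq2 gave Lss -0.031 and Scap -0.014, RLE scaling -0.031 and -0.014, limma-voom Dhcr7 -0.18 and Scap -0.011, and no low-count filter Lss -0.085 and Scap -0.045. Without both libraries numbered 1 they were Acacb -0.16, Dhcr7 -0.36, Ebp 0.017, Fasn -0.098, Lss -0.31, Scap -0.071 and Srebf2 -0.041. With 1 library left out the ranges were Sqle -0.28 to 0.11, Lss -0.26 to 0.17, Sc5d -0.19 to 0.73, Dhcr7 -0.26 to 0.52, Insig2 -0.69 to 0.037, Srebf1 -0.32 to 0.37, Srebf2 -0.060 to 0.30, Scap -0.18 to 0.20, Stard4 -0.53 to 0.17, Elovl5 -0.076 to 0.35, Elovl6 -0.91 to 0.35, Fads1 -0.42 to 0.23, Fads2 -0.61 to 0.17 and Abcg1 -1.06 to 0.031. The cause was not tested. Same-numbered FDM and NC libraries deviated from their group means with correlations across genes of 0.0951, 0.0335 and -0.152. With so few libraries these values cannot show whether a number marks a shared batch or pairing, which the labels do not give. FDM 1 and NC 1 both had few genes detected, 12783 and 14416. As a block the replicate number changed the sign of Scap alone (-0.011).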
